A study of Mus musculus with 4 samples.

Results

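Chemokines and their receptors were examined as 1 gene family in mouse liver after treatment with aristolochic acid I (AAI), a nephrotoxic and carcinogenic compound of Aristolochia plants. Members were taken by name: every gene on the array whose symbol was Ccl, Cxcl, Cx3cl, Xcl, Ccr, Cxcr, Cx3cr, Xcr or Ackr followed by a number and at most 1 letter. The rule found 58 of the 37074 gene names on the array, 36 ligands and 22 receptors, measured by 82 probes. Where a gene had several probes, the brightest one stood for it.

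Total liver RNA was hybridised to 4 single-colour arrays, 1 for each sex and treatment. All mice were wild-type C57BL/6, 6 weeks old, and were injected intraperitoneally on 5 days a week for 3 weeks. Females received AAI at 5 mg/kg/day and males at 2 mg/kg/day, each in corn oil, and the control mice of each sex received corn oil alone. RNA of 5 mice was pooled on each array, so no spread between animals could be measured, no difference could be tested, and sex and dose cannot be told apart in any contrast between female and male responses.

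Chemokines are small secreted proteins that guide leukocytes along concentration gradients through G protein-coupled receptors. In the liver they are made by Kupffer cells, sinusoidal endothelium, stellate cells and hepatocytes, and they bring monocytes, neutrophils and lymphocytes to injured or infected tissue. Atypical receptors bind the same ligands without the classical G protein signal and remove or redistribute them.

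The promoters of 5 ligands on which the results turn are shown, as the 250 bases before the transcription start from RefSeq (GRCm38.p6), read 5′ to 3′ along the gene. Capitals mark matches to the NF-κB consensus (both strands), to the interferon response core GAAANNGAAA (both strands) and to TATAAA (gene strand only). Cxcl10 and Cxcl9 were lower with AAI in both sexes, Cxcl1 and Ccl8 were higher in both, and Cxcl13 was far lower in females.
Cxcl10, chr5:92348890-92349139, - strand: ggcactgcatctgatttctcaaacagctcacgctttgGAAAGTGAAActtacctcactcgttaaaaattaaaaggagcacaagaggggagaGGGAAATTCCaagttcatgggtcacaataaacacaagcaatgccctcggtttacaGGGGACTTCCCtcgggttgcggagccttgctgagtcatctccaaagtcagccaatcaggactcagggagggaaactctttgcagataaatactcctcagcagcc
Cxcl9, chr5:92328080-92328329, - strand: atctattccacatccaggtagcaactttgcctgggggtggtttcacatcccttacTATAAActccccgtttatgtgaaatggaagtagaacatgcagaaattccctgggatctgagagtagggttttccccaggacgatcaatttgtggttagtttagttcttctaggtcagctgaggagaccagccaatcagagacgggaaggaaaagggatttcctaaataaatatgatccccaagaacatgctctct
Cxcl1, chr5:90890995-90891244, + strand: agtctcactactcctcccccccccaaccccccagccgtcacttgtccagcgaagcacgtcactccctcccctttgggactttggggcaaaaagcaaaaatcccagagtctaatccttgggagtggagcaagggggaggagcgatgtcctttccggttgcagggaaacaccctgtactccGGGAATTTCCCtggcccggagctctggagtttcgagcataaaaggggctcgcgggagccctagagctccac
Ccl8, chr11:82114935-82115184, + strand: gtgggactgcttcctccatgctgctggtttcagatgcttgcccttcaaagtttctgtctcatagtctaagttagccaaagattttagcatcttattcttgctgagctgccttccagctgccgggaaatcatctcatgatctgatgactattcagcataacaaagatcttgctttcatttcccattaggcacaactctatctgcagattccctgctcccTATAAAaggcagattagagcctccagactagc
Cxcl13, chr5:95956689-95956938, + strand: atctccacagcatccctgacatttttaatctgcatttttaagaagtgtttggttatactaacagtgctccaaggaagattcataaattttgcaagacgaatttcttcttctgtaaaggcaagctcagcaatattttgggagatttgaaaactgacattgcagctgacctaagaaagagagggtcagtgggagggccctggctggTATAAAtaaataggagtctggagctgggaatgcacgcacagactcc
Of the 58 members, 43 had a promoter in the table. The NF-κB consensus was in 11 of them (25.6%), against 7.25% of all 32851 promoters over the same window, and GAAANNGAAA was in 3 (6.98%), against 2.98%. TATAAA was in 12 (27.9%), against 7.59%. The member shares count genes, while the shares over all promoters count promoter entries. The Cxcl10 window, whose gene was lower, and the Cxcl1 window, whose gene was higher, both held the NF-κB consensus, and matches on opposite strands overlapped in each. Of the 5 windows, that of Cxcl10 alone held GAAANNGAAA. The Ccl8, Cxcl9 and Cxcl13 windows held TATAAA and neither of the other motifs. These letter matches are a description and were not set against any binding data.

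Of the 58 members, 47 were well above background on all 4 arrays and 5 (Ccr4, Ccl3, Ccl20, Cxcl2 and Cxcl15) on 1 to 3. The other 6 (Ccr1, Xcr1, Cxcl17, Cxcl3, Ccl22 and Ccl26) were not well above background on any array, which leaves their level unknown. Signals are normalized log2 intensities, and levels of different probes were not set against each other. As a measure of technical error, probes of 1 gene differed in their log2 ratio with a median SD of 0.25 in the female and 0.24 in the male comparison. Over the 18 members with several probes above background, these SDs were 0.35 and 0.30. The ± after a log2 ratio below is the error that the scanner software's error model gives the 2 spots, which holds no variation between animals or pools.

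In females, 4 members (Ccl7, Ccl8, Cxcl1 and Ccr4) were at least 2-fold higher with AAI, and 4 (Cxcl13, Cxcl10, Ackr4 and Cxcl9) were at least 2-fold lower. They made up 15.4% of the 52 members that could be compared, against 4.41% of all 31636 genes compared (1.34% higher and 3.07% lower). In males, 8 members (Ccl8, Ackr3, Ccl21a, Ccl7, Cxcl1, Cxcr2, Cxcl14 and Ccl11) were at least 2-fold higher and 1 (Cxcl10) was lower. They made up 17.6% of 51 members, against 8.03% of 30489 genes (3.47% higher and 4.56% lower). The family did not move as a block: the median log2 ratio was -0.11 in females, with 23 members above 0 and 26 below, and 0.06 in males, with 27 above and 20 below, beside 0.04 and 0.02 over all genes. With each array scaled to its 75th percentile instead of quantile normalized, the female split over all genes went from 424 higher and 971 lower to 608 and 745, and that of the members from 4 and 4 to 5 and 4. With normexp background correction and an offset of 50, 4 members in females (Ccl8, Cxcl9, Cxcl10 and Cxcl13) and 5 in males (Ccl8, Ackr3, Ccl21a, Cxcl1 and Cxcl10) were past 2-fold. Over all genes, normexp left 139 higher and 343 lower in females, and 554 and 643 in males.

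**Figure D1:**
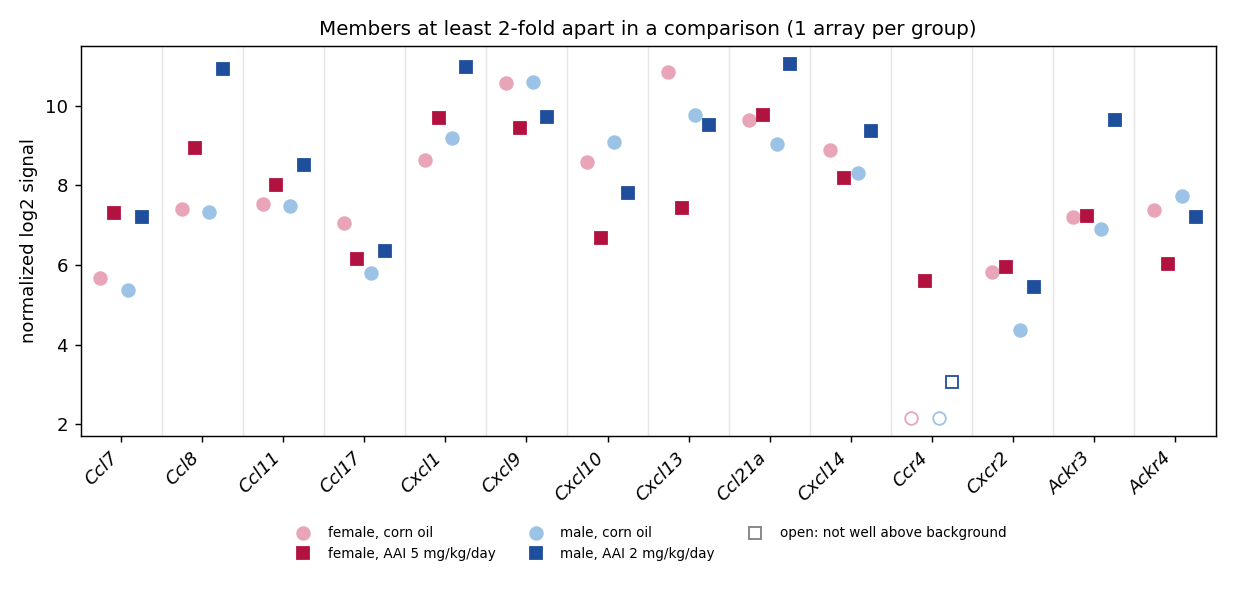
Normalized log2 signal (vertical axis) of the 14 members that were at least 2-fold apart in any of the 3 comparisons, with 1 point for each array, circles for corn oil and squares for AAI, and open symbols where the probe was not well above background. Ccl7, Ccl8 and Cxcl1 have both squares above both circles, Cxcl9 and Cxcl10 have both squares below both circles, and Cxcl13 stands out by its low female AAI array at 7.43.

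Of the 4 ligands grouped as monocyte chemoattractants, Ccl7 and Ccl8 were at least 2-fold higher with AAI in both sexes. All 4 had ratios above 0 in both sexes, and the medians of their log2 ratios were 1.15 in females and 1.19 in males. Ccl7, a monocyte chemoattractant, had a log2 signal of 7.30 with AAI and 5.67 with corn oil in females, and 7.20 and 5.38 in males. Both AAI arrays thus lay above both corn oil arrays. Ccl7 was 3.09-fold higher in females (log2 ratio 1.63 ± 0.25) and 3.53-fold higher in males (1.82 ± 0.28).

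Ccl8, a related ligand made largely by tissue macrophages, stood at 8.93 with AAI and 7.42 with corn oil in females, and at 10.93 and 7.33 in males. The corn oil arrays were close and both AAI arrays were above them, the male one most. Ccl8 was 2.84-fold higher in females (1.5 ± 0.21) and 12.1-fold higher in males (3.60 ± 0.21), the 94th and 103rd largest increase among 29675 and 28393 genes above background on both arrays. Ccl2, the best-known ligand of Ccr2, had log2 ratios of 0.79 and 0.56, and Ccl12 of 0.32 and 0.53, none of them at 2-fold. Ccr2 was at 6.86 with AAI and 6.09 with corn oil in females, and at 7.21 and 6.37 in males, ratios of 0.77 and 0.84.

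Markers of monocytes and macrophages were mostly lower in females. Of 9 monocyte and macrophage markers, 6 were at least 2-fold lower in females and 1 was higher in males, with median log2 ratios of -1.28 and -0.47. The higher marker in males was Ly6c2, a marker of inflammatory monocytes, at a log2 ratio of 1.60, while in females it was at -1.18. Its signal was 12.94 with AAI and 14.12 with corn oil in females, and 13.98 and 12.38 in males. Between the corn oil arrays Ly6c2 was lower in males (-1.74), and the male AAI value lay below that of the female controls. Of 6 markers of Kupffer cells, the resident macrophages of the liver, 4 were at least 2-fold lower in females (Clec4f, Vsig4, Timd4 and Cd5l) and 3 in males (Timd4, Cd5l and Cd163), with medians of -1.40 and -0.95. The part of these cells in the values of Ccl7, Ccl8 and Ccr2 was not tested. In these bulk samples, fewer cells of a type and less RNA per cell cannot be told apart.

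Among the CXC ligands that attract neutrophils, Cxcl1 alone was past 2-fold. Its log2 signal was 9.70 with AAI and 8.64 with corn oil in females, and 10.98 and 9.19 in males. Both AAI arrays were above both corn oil arrays. Cxcl1 was 2.09-fold higher in females (1.06 ± 0.20), just inside the 2-fold threshold, and 3.45-fold higher in males (1.79 ± 0.20). Cxcl5 had log2 ratios of -0.30 and 0.28, Cxcl2 was at 0.01 in females and gave only a bound in males, Cxcl15 gave only bounds under 2-fold and Cxcl3 was not well above background.

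Cxcr2, the neutrophil receptor for Cxcl1, was at 5.94 with AAI and 5.83 with corn oil in females, and at 5.46 and 4.36 in males. The male corn oil array was the low one, so the 2.13-fold male increase (1.09 ± 0.38) brought Cxcr2 to a level below both female arrays. That control signal of 4.36 was near the lowest signals called well above background, and with normexp correction the male ratio was 0.25. Cxcr1 had log2 ratios of 0.74 and 0.03. Of 10 neutrophil markers, none was at least 2-fold apart in females and 3 were higher in males: Retnlg at a log2 ratio of 1.77, S100a8 at 1.44 and S100a9 at 1.24. Like Cxcr2, these 3 were lowest on the male corn oil array. The neutrophil-defining Ly6g was at -0.66 in females and 0.41 in males, and the list had medians of 0.29 and 0.41.

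Of the 3 ligands of Cxcr3, which are induced by interferons and attract activated T cells and NK cells, 2 (Cxcl10 and Cxcl9) were at least 2-fold lower in females and 1 (Cxcl10) in males. Cxcl10 had a log2 signal of 6.69 with AAI and 8.60 with corn oil in females, and 7.80 and 9.10 in males. Both AAI arrays lay below both corn oil arrays. Cxcl10 was 3.76-fold lower in females (-1.91 ± 0.21), the 83rd largest decrease, and 2.46-fold lower in males (-1.30 ± 0.21). It was the only member at least 2-fold lower in both sexes.

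Cxcl9 was at 9.44 with AAI and 10.57 with corn oil in females, and at 9.72 and 10.59 in males. Again both AAI arrays were below both controls, 2.20-fold in females (-1.14 ± 0.20) and, short of 2-fold, 1.83-fold in males (-0.87 ± 0.20). Cxcl11, which C57BL/6 mice are known to carry with a frameshift, had log2 ratios of -0.31 and 0.04. The receptor Cxcr3 was at 7.11 and 7.55 in females and at 7.03 and 7.47 in males, a log2 ratio of -0.44 in each. Median log2 ratios were -0.12 and -0.20 over 11 T cell markers and -0.26 and -0.02 over the 7 NK cell markers above background, with Ncr1 not well above background on any array. Of the T cell markers, Cd2 was at least 2-fold lower in females (-1.53) and at -0.62 in males. No other T cell marker was past 2-fold in either sex. The part of these cells in the values of Cxcl9 and Cxcl10 was not tested.

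**Figure D2:**
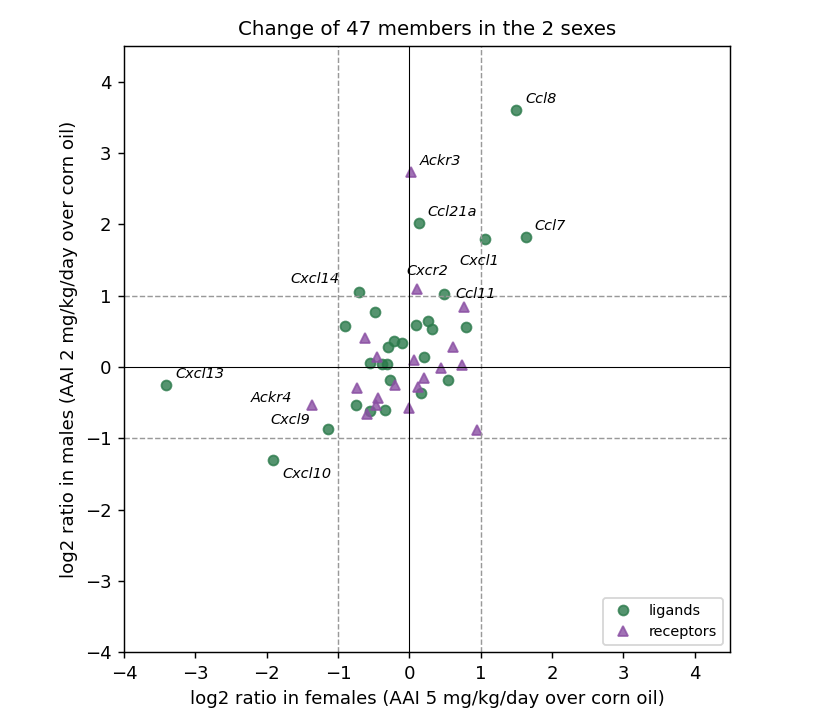
Log2 ratio of AAI over corn oil in females (horizontal axis) and in males (vertical axis) for the 47 members above background on both arrays in both sexes, with circles for ligands, triangles for receptors and dashed lines at 2-fold. Ccl7, Ccl8 and Cxcl1 lie past 2-fold at the upper right, Cxcl10 at the lower left, and no member is past 2-fold in opposite directions.

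Over the 47 members that could be compared in both sexes, 16 had ratios above 0 in both and 14 below 0 in both. A further 11 were below 0 in females and above 0 in males, and 6 the other way. Past 2-fold, 3 members were higher in both sexes, 1 was lower in both and none was opposite.

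The lymphoid homing ligands, which place B cells, T cells and dendritic cells in lymphoid tissue, held the largest decrease of the family in females and a large increase in males, in different genes. Cxcl13, the B cell-attracting ligand of Cxcr5, was at 7.43 with AAI and 10.84 with corn oil in females, and at 9.51 and 9.77 in males. The female AAI array stood far below the other 3. Its decrease of 10.6-fold (-3.41 ± 0.21) was the 19th largest of 29675 genes in females, while the male log2 ratio was -0.26 ± 0.20. Its receptor Cxcr5 had log2 ratios of -0.47 and -0.54, and 10 B cell markers had medians of 0.17 and -0.09. Of these markers, Fcrla was at least 2-fold lower in females (-1.18), and Fcrla (a bound of -1.22) and Cd79b (-1.17, and -0.92 in females) in males. Their part in the value of Cxcl13 was not tested.

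Ccl21a, which guides Ccr7-bearing T cells and dendritic cells, was at 9.78 with AAI and 9.65 with corn oil in females, and at 11.06 and 9.04 in males. Only the male AAI array was high. Ccl21a was 4.07-fold higher in males (2.02 ± 0.20), but its probe is annotated to several near-identical Ccl21 transcripts, so the copies cannot be told apart. Ccl19, the other ligand of Ccr7, was at 7.80 and 8.28 in females and at 8.35 and 7.58 in males, ratios of -0.48 and 0.77. Ccr7 itself was at -0.45 and 0.14, and a dimmer probe of it at -1.29 and -0.31. Cxcl12, which retains Cxcr4-bearing cells, was at -0.38 and 0.04, and Cxcr4 was at 0.61 and 0.28 with a further probe at -0.32 and -0.25.

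The atypical receptors differed among themselves. Ackr3, which scavenges Cxcl12, was at 7.24 with AAI and 7.22 with corn oil in females, and at 9.64 and 6.91 in males. The male AAI array was well above the other 3, a 6.65-fold increase (2.73 ± 0.21), while the female log2 ratio was 0.02. Ackr4, which takes up Ccl19, Ccl21 and Ccl25, was at 6.02 and 7.39 in females and at 7.20 and 7.74 in males. It was 2.59-fold lower in females (-1.37 ± 0.22) and at -0.54 in males, and a dimmer probe gave -0.37 and -0.84, so the 2-fold female decrease rested on 1 probe.

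Ackr1, which binds chemokines on red cells and venules, had log2 ratios of -0.59 and -0.66. A further probe gave -0.25 and 0.36. Ackr2, a scavenger of inflammatory CC ligands, was at -0.63 and 0.41, and its further probe at 0.23 and -0.11, opposite in both sexes.

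Of the mucosal and skin ligands, Cxcl14 was at 8.19 with AAI and 8.90 with corn oil in females, and at 9.37 and 8.32 in males. It was 2.07-fold higher in males (1.05 ± 0.21) and at -0.71 in females, with a dimmer probe at 0.29 and 0.01. By their brightest probes Ccl25, Ccl27a and Ccl28 were between -0.36 and 0.21. A further Ccl27a probe was at -0.59 in females, and 2 dimmer Ccl25 probes gave bounds of -0.72 and -0.57 in males. Ccl11, the eosinophil attractant, was at 8.02 and 7.53 in females and at 8.51 and 7.49 in males. Both AAI arrays were above both controls, by 0.49 in females and by 1.02 ± 0.21, or 2.02-fold, in males, the nearest of the male values to 2-fold.

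Ackr3, Ccl21a, Cxcl14, Cxcr2 and Ccl11, the members past 2-fold in males and not in females, were higher with AAI in a comparison where markers of other tissues were higher too. All 8 skeletal muscle markers were at least 2-fold higher with AAI in both sexes, with a summed signal of 39300 against 1060 in females and 287000 against 4130 in males. Of 7 fat markers, 5 were higher in males (summed signal 25200 against 2680), and of 9 adrenal markers, 7 were (46600 against 5630). In females, 2 fat markers (Retn and Adipoq) and no adrenal marker were at least 2-fold higher, with summed signals of 1690 against 1530 and 3620 against 3590, and Ucp1 was not well above background. The defining hepatocyte genes were above background on all 4 arrays, with median log2 ratios of 0.02 and -0.01. Of 8 stellate cell and fibroblast markers, Dpt (2.03) and Col1a1 (1.13) were at least 2-fold higher in males, and Dpt was lower in females (-1.32). Short of 2-fold in males, Col3a1 was at 0.84 and Reln at -0.98. The list had medians of -0.12 in females and 0.50 in males. The part of these tissues and cells in the values of Ccl8, Ackr3, Ccl21a, Cxcl14, Cxcr2, Ccl11 and the other members was not tested.

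**Figure D3:**
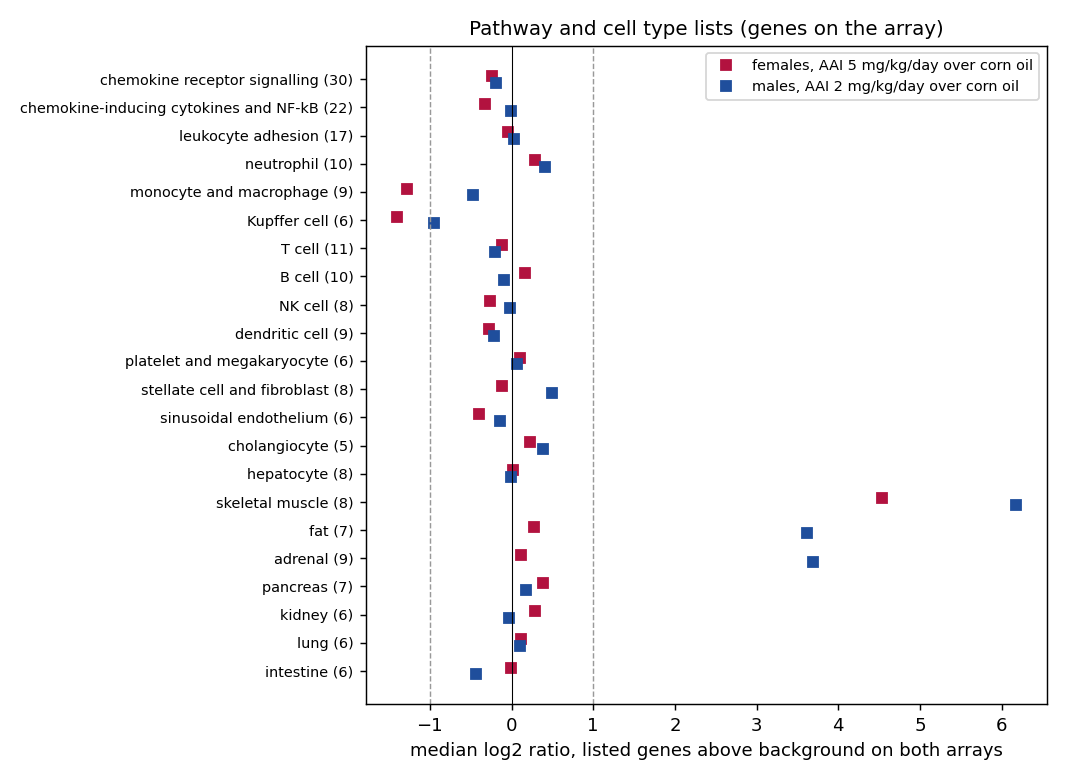
Median log2 ratio of AAI over corn oil (horizontal axis) for lists of pathway and cell type genes, with the number of listed genes on the array in brackets, in females and males, and dashed lines at 2-fold. Kupffer cell markers lie at -1.40 and -0.95, skeletal muscle markers at 4.54 and 6.17, and fat and adrenal markers at 3.62 and 3.69 in males only.

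The inflammatory ligands Ccl3, Ccl4, Ccl5, Ccl6 and Ccl9, which are made by macrophages, T cells and NK cells, held no member that was called at 2-fold. In females 4 of the 5 were below 0, with Ccl3 at -0.85, Ccl4 at -0.75, Ccl5 at -0.56 and Ccl6 at -0.22, and Ccl9 was at 0.26. In males Ccl9 was at 0.65, Ccl6 at 0.36, Ccl5 at 0.06 and Ccl4 at -0.54. A dimmer probe of Ccl4 was at -0.50 in females and -1.01 in males. Ccl3 was not well above background with AAI in males, against 5.47 with corn oil, which makes it at least 1.70-fold lower and does not set how much lower.

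The remaining CC receptors and type 2 ligands held 1 member past 2-fold. Ccr4, the receptor for Ccl17 and Ccl22 on regulatory and type 2 helper T cells, was at 5.59 in AAI-treated females and not well above background on the other 3 arrays. That made it at least 2.37-fold higher in AAI-treated females than in their controls, by 1 of its 2 probes, with the other not well above background on any array. Ccl17 was at 6.15 with AAI and 7.06 with corn oil in females, and at 6.36 and 5.79 in males, ratios of -0.90 and 0.57. Ccr6, the receptor for Ccl20 on B cells and type 17 helper T cells, was at 6.52 and 5.58 in females and at 5.20 and 6.10 in males, ratios of 0.94 and -0.89, just outside 2-fold and opposite in sign. Ccl24 was at 0.09 and 0.59. Of the receptors not yet described, Ccr3 was at 0.20 and -0.16, Ccr8 at 0.06 and 0.10, Ccr9 at 0.44 and -0.01, and Ccr10 at 0.00 and -0.58. Ccl20 gave only bounds under 2-fold. Ccl1 was at -0.34 and -0.61, but its further probe was at 0.49 and 0.40.

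Of the membrane-anchored ligands, Cxcl16 was at -0.11 and 0.33, and its receptor Cxcr6, found on NKT cells, at -0.74 and -0.30. Both probes of Cxcr6 were below 0 in both sexes. Cx3cl1 was at 0.54 and -0.18, but its further probe was at -0.59 and 0.58, the widest disagreement between probes of a member in females. Cx3cr1, the receptor of Cx3cl1 on monocytes, was at -0.20 and -0.25, with a further probe at 0.39 and 0.81. Xcl1, made by NK cells and CD8 T cells, was at -0.56 and -0.62.

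The position of the genes in the genome gave 6 clusters of at least 3 members within 500000 bases of the next one, by the probe coordinates of the array design (mm9). In chr11:81850650-81990510, which holds Ccl2, Ccl7, Ccl11, Ccl12, Ccl8 and Ccl1 in this order, 5 of 6 members were above 0 in each sex, with Ccl1 below. In the neighbouring cluster, chr11:83339296-83478111, with Ccl5, Ccl9, Ccl6, Ccl3 and Ccl4, 4 of 5 were below 0 in females and 3 of the 4 above background on both arrays were above 0 in males. The adjacent genes Cxcl9, Cxcl10 and Cxcl11 in chr5:92752191-92788626 had medians of -1.14 and -0.87, while Cxcl1, in the separate cluster chr5:91190490-91334593, was higher.

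**Figure D4:**
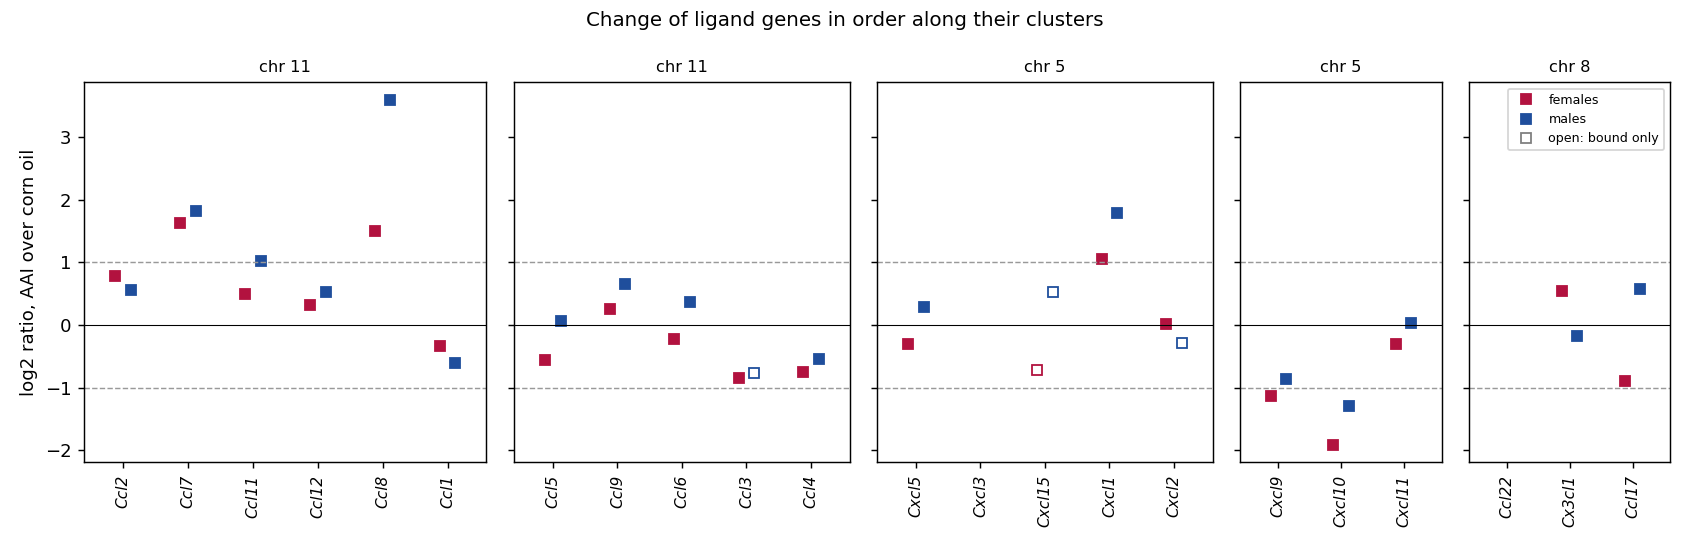
Log2 ratio of AAI over corn oil (vertical axis) for members in their order along the 5 clusters of ligand genes, in females and males, with dashed lines at 2-fold, open symbols where only a bound could be given, and no symbol where the gene was not well above background on either array. The Ccl2 to Ccl8 genes of chromosome 11 lie above 0, and the Cxcl9 and Cxcl10 genes of chromosome 5 lie below 0.

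Without AAI, the members past 2-fold between the sexes were all lower in males. Over 51 members compared between the corn oil arrays, none was at least 2-fold higher in males and 3 were lower (5.88%), against 5.65% of 30846 genes (3.81% higher and 1.84% lower). Cxcr2 was 2.76-fold lower in males (-1.47 ± 0.36), Ccl17 2.41-fold (-1.27 ± 0.24) and Cxcl13 2.09-fold (-1.07 ± 0.20). With normexp correction they were at -0.39, -0.60 and -1.04. The male Cxcr2 signal of 4.36 was near the lowest signals called well above background. Of the 9 neutrophil markers compared, 3 were lower in males as well: Retnlg (-2.57), S100a8 (-2.45) and S100a9 (-2.16). Markers of skeletal muscle (7 of 8), fat (4 of 7) and adrenal gland (5 of 9) were at least 2-fold higher in corn oil males. The part of these cells and tissues in the values of Cxcr2, Ccl17 and Cxcl13 was not tested. The median over members was -0.08, beside -0.02 over all genes. These comparisons share the corn oil arrays with the AAI comparisons, so a low or high control value enters both.

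Past 2-fold, genes downstream of the receptors were lower more often than higher in females, and so were all genes compared. Over all genes, 3.07% were at least 2-fold lower and 1.34% higher in females, and 4.56% and 3.47% in males. Of 30 genes of chemokine receptor signalling, 6 were at least 2-fold lower and none higher in females (median -0.24), among them the G protein regulator Rgs1 (-1.33), the exchange factor Vav1 (-1.31) and the lipid kinase subunit Pik3cd (-1.27). In males 2 were lower, the engulfment and motility adaptor Elmo1 (-1.14, and -1.22 in females) and the receptor kinase Grk5 (-1.08), with a median of -0.19. Of 22 genes for cytokines and NF-κB factors that induce chemokines, 4 were lower in females: Il1a (-1.81), Ltb (-1.32), Il1b (-1.23) and Cd14 (-1.10). In males 1 of the 20 compared was lower, Tnf (-1.23), and the medians were -0.33 and -0.01. Between the corn oil arrays, Il1a (-1.34), Il1b (-1.22) and Rgs1 (-1.21) were at least 2-fold lower in males, and Tnf was higher (1.18). These control values enter the ratios of the 4 genes. Of 17 leukocyte adhesion genes, 16 could be compared in each sex. Of these, 1 was at least 2-fold lower in females (Jam3, at -1.02) and none in males. Several of these genes, such as Vav1 and Cd14, are also expressed by macrophages, whose markers were lower in the same arrays, and the part of that in their values was not tested.

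Chemokines and related receptors with other names were counted apart. Of the 7 on the array, 1 was at least 2-fold higher and 1 lower in each sex. Medians were 0.21 in females and -0.15 in males over the 6 above background on both arrays. Among the 7, Ppbp was at 0.17 in females and -0.67 in males. Pf4, the platelet chemokine Cxcl4, had log2 ratios of 1.89 in females and 1.68 in males, while 6 platelet and megakaryocyte markers had medians of 0.10 and 0.07. Of these markers, Itgb3 was at 0.14 in females and past 2-fold in males (1.12), and Itga2b was at 0.89 and 0.64. Gp6 was at -0.34 and -0.73, and Gp1ba at 0.05 and -0.70. Cmklr1, the chemerin receptor, was at -0.08 in females and -1.66 in males. Its signal was 9.20 with AAI and 9.28 with corn oil in females, and 8.76 and 10.42 in males. Between the corn oil arrays it was higher in males, at a log2 ratio of 1.13, and that control value enters the male ratio.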

How the data were processed

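Liver RNA of 5 pooled mice per group was hybridised to Agilent SurePrint G3 mouse arrays in 1 colour (Cy3), and scanned arrays were extracted by the authors with Feature Extraction 10.5.1.1. The deposited intensity columns are the software's background-corrected processed signals and their errors, its mean and background signals, and flags for probes well above background. The deposited series table held the same signals, and intensities that the authors had quantile normalized. Processed signals in 2 of the 4 files were rounded to 3 significant digits. How the replaced spots described next arose is not given in the sources used here.

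Outlier spots, and spots whose processed signal had been replaced by the background value (0, 26, 92 and 0 in AAI-treated females, control females, AAI-treated males and control males), were left out, and repeated spots were averaged. No spot of a member was among them. The log2 signals of 56393 probes were quantile normalized with limma 3.58.1 in R 4.3.3. On the 4 arrays, 81.4%, 77.9%, 74.6% and 77.4% of probes were well above background and no spot was saturated. A gene was called at 2-fold or more where its brightest probe passed the software's background test on either array compared. Where it was not on the other array, the fold is a bound, against the higher of the probe's own value there and the lowest signal well above background. With 1 array per group there was no test. On simulated data the steps were tested with known fold changes. Values on all 4 arrays are given for members past 2-fold, and the other members are described by role. From each pathway or marker list at most the 4 genes with the largest ratios in either sex were named. Those named beyond these (Ly6g, Ncr1, Cd14, Elmo1, Grk5, Ppbp and the Kupffer cell genes) were added after their values were seen. The members and lists were chosen with earlier results of these data known. Values of 1 member and 1 listed gene are not reported here. Promoters and motifs were read from RefSeq tables (GRCm38.p6), and probe positions from the array annotation (mm9).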

Additional observations from a re-analysis of the deposited data

Results flagged for a closer look

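A set of 5 members had log2 ratios of opposite sign in females and males, each beyond the SD between probes and at least 1 apart. Ackr2 was at -0.63 in females and 0.41 in males, and its further probe had the opposite signs. Ccl17 was at -0.90 and 0.57, Ccl19 at -0.48 and 0.77, Ccr6 at 0.94 and -0.89, and Cxcl14 at -0.71 and 1.05. A dimmer probe of Cxcl14 was at 0.29 and 0.01, so its opposite signs rested on 1 probe. With 1 array per group none of these differences was tested, and sex and dose cannot be told apart. Ccl17 also differed between the corn oil arrays, 2.41-fold lower in males, and that value enters both of its ratios.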

How the results depend on the processing

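Under normexp background correction, 4 members in females, 5 in males and 1 between the corn oil groups were past 2-fold, against 8, 9 and 3 as reported. Over all genes, 424 were higher and 971 lower in females as reported, and 139 and 343 under normexp. In males these were 1058 and 1389, and 554 and 643 under normexp. Between the corn oil groups they were 1176 and 567, and 475 and 225 under normexp. Ccl7 was then at 0.83 and 0.88, Cxcl1 at 0.87, Ccr4 at 0.58 and Ackr4 at -0.69 in females, and Ccl11 at 0.66 and Cxcl14 at 0.89 in males. Cxcr2 was at 0.25 in males and at -0.39 between the corn oil groups, where Ccl17 was at -0.60. A 1.5-fold threshold gave 21, 19 and 10 of the 52, 51 and 51 members compared, and a 3-fold threshold gave 3, 5 and 0. Over all genes, 1.5-fold gave 2470 higher and 3140 lower of 31636 in females, and 2999 and 3344 of 30489 in males. Between the corn oil groups it gave 3083 and 2440 of 30846. At 3-fold these counts were 120 and 221, 471 and 493, and 370 and 154. With the background-subtracted signal, Ccl11 and Cxcr2 were at 0.85 and 0.94 in males. With the mean over probes, Cxcl14 was at 0.53 in males and Ackr4 at -0.87 in females. Quantile normalization against scaling to the 75th percentile, the background-subtracted signal, the authors' normalized columns, the filters on dim probes and keeping the replaced spots left every count within 1.5 times. Member medians ran from -0.12 to 0.00 in females and from 0.02 to 0.14 in males. None of the 20 ratios named past 2-fold changed sign under any alternative, and 10 were past 2-fold under all of those run. The cause of the normexp changes was not tested. The number of arrays limits the precision, and probes not well above background on an array give only bounds there. No paired analysis was possible because each group had 1 array.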
